A study of Mus musculus with 6 samples.

Results

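The genes examined here encode the proteins of the mitochondrial ribosome (gene names starting with Mrpl for the large and Mrps for the small subunit) and of the translocases that carry proteins through the inner (Timm) and outer (Tomm) mitochondrial membranes. They were taken by name from the array file, as every probe whose gene name starts with one of those 4 prefixes, which gave 131 of the 25697 probes and 90 of the 18138 gene names. The rule uses names and no measured value, although it was proposed with earlier results of these data known, and all 90 names matched a current mouse symbol. The large subunit held 65 probes for 44 genes, the small subunit 40 probes for 28 genes, the inner membrane translocases 19 probes for 12 genes and the outer membrane translocases 7 probes for 6 genes.

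Mitochondrial ribosomes translate the few proteins that mitochondrial DNA still encodes, all of them subunits of the respiratory chain machinery. Every protein of that ribosome is itself encoded in the nucleus, made in the cytosol and imported, first through the outer membrane complex and then through an inner membrane complex, with small Tim proteins acting as chaperones in the space between. Synthesis of mitochondrial ribosomal proteins and import capacity are therefore both needed to build the respiratory chain.

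Expression was measured in 3 mouse cell lines of lung endothelial progenitor cells, all derived from female athymic nude mice and all grown in endothelial medium with serum. EPC was the parental line, obtained by sorting lung cells on surface markers (Flk-1 positive and CD45 negative among them), at passage 3 to 6. EPC_acLDL cells, also at passage 3 to 6, had been labelled with fluorescent acetylated LDL, a lipoprotein that endothelial cells take up, and positive cells were sorted and replated. EPC_Late was high passage, taken at passage 16 to 20 by its label, while the culture methods give a wider range. By the study's text it was the EPC_acLDL line carried to high passage, so it had been labelled and sorted as well. EPC and EPC_acLDL are of like passage and differ in labelling and sorting, EPC_Late and EPC_acLDL differ in passage, and EPC_Late and EPC differ in both, which cannot be told apart there. Each line was a single one. Each line was run on 2 arrays. The study's methods speak of 2 independent experiments run in duplicate, and a figure legend of 3 samples each in duplicate. Neither matches 2 arrays per line, so whether those were separate cultures is unclear. The p-values therefore measure the spread between these arrays, which may be technical.

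A detection p-value came with every intensity, giving the fraction of negative controls whose brightness reached that of the probe, and a probe was called above background where it was below 0.05. Lines were compared for the 2333 probes that were above background on each of the 2 arrays of some line. Between 2177 and 2365 probes were above background per array, and 22811 probes on none. Of 16 probes for 12 endothelial marker genes, only Kdr, the gene of the sorted receptor Flk-1, was above background, on all 6 arrays, and those of Pecam1, Cdh5, Tek and Vwf were on none. Directions follow the labels of the deposited columns. The stem cell factor Sox2 was 2.01 (SE 0.11, adjusted p = 0.000956) higher in EPC_acLDL and 2.67 (SE 0.11, adjusted p = 6e-05) higher in EPC_Late than in EPC on the log2 scale, the opposite of the direction in the study's text, and the cause was not tested.

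Promoters of the genes on which the results turn are shown first, as 300 bases of RefSeq sequence on GRCm38.p6, from 250 before to 50 after the start. Mrps11 (chr7:78782881-78783180, plus strand) and Mrps22 (chr9:98601630-98601929, minus strand) are the ribosomal genes that passed a test between lines, and Timm8b (chr9:50603651-50603950, plus strand) was the brightest member. Capitals mark matches, on either strand, to 3 motifs of factors known to act on nuclear genes for mitochondrial proteins: GCGCANGCG for NRF1, CCGGAAG for the ETS family that includes GABP, and AAGATGGCG for YY1.
Mrps11: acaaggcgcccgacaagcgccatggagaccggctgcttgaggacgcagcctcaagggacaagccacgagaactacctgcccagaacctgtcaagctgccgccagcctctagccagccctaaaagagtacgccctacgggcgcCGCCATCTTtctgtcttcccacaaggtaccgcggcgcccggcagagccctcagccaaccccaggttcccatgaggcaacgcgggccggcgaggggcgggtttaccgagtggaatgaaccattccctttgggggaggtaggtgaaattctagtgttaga
Mrps22: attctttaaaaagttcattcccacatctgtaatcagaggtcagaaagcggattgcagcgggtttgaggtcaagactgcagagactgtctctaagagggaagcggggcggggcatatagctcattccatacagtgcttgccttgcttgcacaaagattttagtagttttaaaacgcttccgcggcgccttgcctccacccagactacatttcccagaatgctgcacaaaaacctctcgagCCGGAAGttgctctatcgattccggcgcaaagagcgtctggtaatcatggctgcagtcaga
Timm8b: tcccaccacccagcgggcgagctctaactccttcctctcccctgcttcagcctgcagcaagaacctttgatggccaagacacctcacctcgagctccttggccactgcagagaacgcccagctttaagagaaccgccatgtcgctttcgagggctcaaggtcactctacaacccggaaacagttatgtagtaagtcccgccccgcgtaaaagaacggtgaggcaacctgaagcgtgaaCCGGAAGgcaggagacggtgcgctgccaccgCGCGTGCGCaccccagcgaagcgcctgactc

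The Mrps11 window held a YY1 match on the opposite strand, the Mrps22 window an ETS match, and the Timm8b window an ETS and an NRF1 match that do not overlap. The Mrps22 match began 11 bases and the Timm8b ETS match 12 bases before the start. Over the 88 windows of the 80 member genes with a RefSeq promoter entry, 36.4% held the ETS letters, 18.2% the NRF1 letters and 9.09% the YY1 letters. The same shares over all 32851 windows were 8.86%, 6.25% and 1.40%. Among the 21263 windows of protein-coding genes, whose median GC content of 56.3% was closer to the 58.5% of the members, they were 11.6%, 8.58% and 1.83%. At least 1 of the 3 motifs was in 54.5% of member windows and in 19.6% of protein-coding windows. These are counts of letters and not of bound sites. Of the other measured members, Mrpl10 and Mrpl30 held the NRF1 letters, Mrpl2 and Timm9 held none of the 3, and Mrpl13, Mrpl54 and Tomm7 had no entry.

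Most of these genes gave no signal that could be told from background. Of the 131 probes, 119 (90.8%) were above background on none of the 6 arrays, against 88.8% of all probes, and 6 (4.58%) on all 6, against 6.56%. The median detection p-value was 0.482 over the members and 0.470 over all probes. Only 10 probes, each for a different gene, could be compared between lines, 7.63% of the members against 9.08% of all probes. By role, these were 5 of 65 probes for the large subunit, 2 of 40 for the small subunit, 2 of 19 for the inner membrane and 1 of 7 for the outer membrane. The other 121 probes had intensities from 217 to 477, with a median of 328.

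For comparison, cytosolic ribosomal proteins had 27 of 83 probes (32.5%) in the tested set and the respiratory chain and ATP synthase list 12 of 89 (13.5%). A dim probe does not show that its gene was silent. Among the 10 measured genes, 5 had further probes, 8 in all, and none of those 8 was above background on any array. The second Timm8b probe had detection p-values from 0.503 to 0.799 and the second Mrps11 probe from 0.910 to 0.970, although the first probe of each gene had a detection p-value of 0 on every array. Values below are therefore those of a single probe. Just inside the filter lay Mrpl13, whose higher detection p-value in its best line was 0.0464, Timm9 at 0.0439 and Tomm7 at 0.0376. Just outside lay Mrps16 at 0.0551 and Mrps31 at 0.0614.

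**Figure D1:**
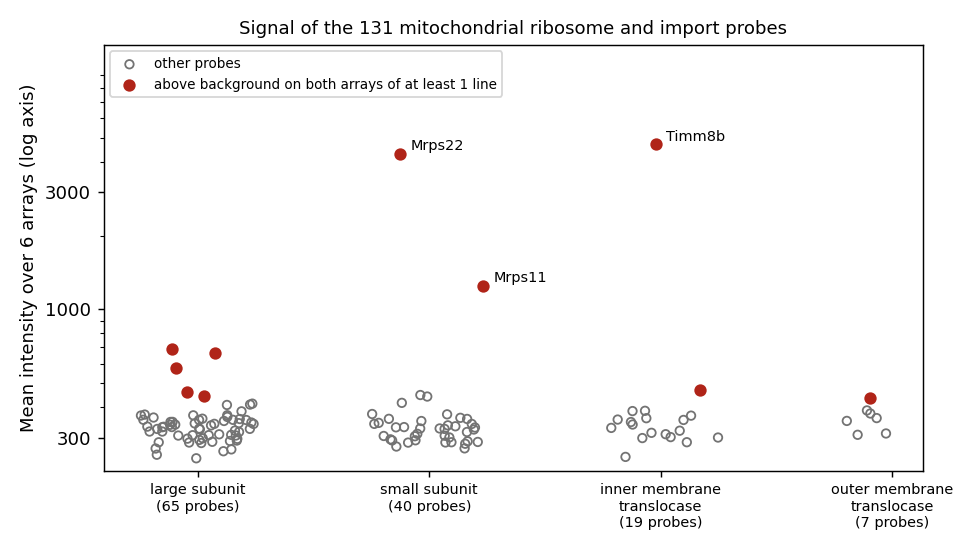
Mean deposited intensity over the 6 arrays (log axis) for each of the 131 probes, one point per probe, grouped by role, with sideways scatter added to separate points. Filled points are the 10 probes that could be compared between lines, and Timm8b, Mrps22 and Mrps11 stand clear of the rest.

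The 3 bright members were Timm8b, Mrps22 and Mrps11. Timm8b encodes a small Tim chaperone of the intermembrane space. Its normalized log2 signal was 12.09 and 12.15 in EPC, 12.20 and 12.19 in EPC_acLDL, and 11.74 and 12.03 in EPC_Late. Both EPC_Late arrays lay below the 4 others, and the arrays of no pair of lines overlapped. The differences did not pass the test: EPC_Late was -0.23 (SE 0.13, adjusted p = 0.292) against EPC and -0.31 (adjusted p = 0.172) against EPC_acLDL. Without EPC_Late replicate 1, the lower of that line's arrays, they were -0.086 and -0.17.

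Mrps22 encodes a small subunit protein, inherited loss of which causes mitochondrial disease. Its log2 signal was 11.98 and 11.90 in EPC, 12.13 and 12.22 in EPC_acLDL, and 11.51 and 11.66 in EPC_Late. The order EPC_acLDL, EPC, EPC_Late held without overlap. It fell from EPC_acLDL to EPC_Late by 0.60 on the log2 scale (SE 0.12, 95% interval -0.88 to -0.31, adjusted p = 0.0158), which is 1.51-fold. Without EPC_acLDL replicate 1, EPC_acLDL replicate 2 or EPC_Late replicate 1 the adjusted p was 0.0735, 0.094 and 0.0832, in fits where, as in all such fits below, the line's remaining array is assumed to vary like the arrays of the other lines. Against EPC, EPC_Late was -0.36 (SE 0.12, adjusted p = 0.0812), and EPC_acLDL was 0.24 against EPC (adjusted p = 0.316).

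Mrps11 encodes a small subunit protein related to bacterial S11, part of the platform of the subunit. Its log2 signal was 10.08 and 10.19 in EPC, 9.68 and 9.81 in EPC_acLDL, and 9.51 and 9.31 in EPC_Late. The lines were ordered EPC, EPC_acLDL, EPC_Late and did not overlap. It fell from EPC to EPC_Late by 0.73 on the log2 scale (SE 0.13, 95% interval -1.04 to -0.41, adjusted p = 0.00881), or 1.65-fold. The adjusted p was 0.0526 without EPC_Late replicate 2. The step from EPC to EPC_acLDL was -0.39 (SE 0.13, adjusted p = 0.163), and that from EPC_acLDL to EPC_Late was -0.33 (adjusted p = 0.132), so neither step alone passed.

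Tomm7, a small subunit of the outer membrane translocase that also takes part in PINK1 stabilisation, was the only outer membrane gene measured. Its log2 signal was 6.28 and 6.50 in EPC, 6.59 and 6.71 in EPC_acLDL, and 7.004 and 6.985 in EPC_Late. It was above background only in EPC_Late and entered the comparison only through that line, the one in which it is high, so its differences are a description and not a test. With the other lines set at their lowest signal above background, EPC_Late was at least 1.12-fold higher than EPC and at least 1.17-fold higher than EPC_acLDL. It passed the threshold in the fit against EPC with all 6 arrays, and no longer did without EPC replicate 1, EPC_Late replicate 1 or EPC_Late replicate 2.

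**Figure D2:**
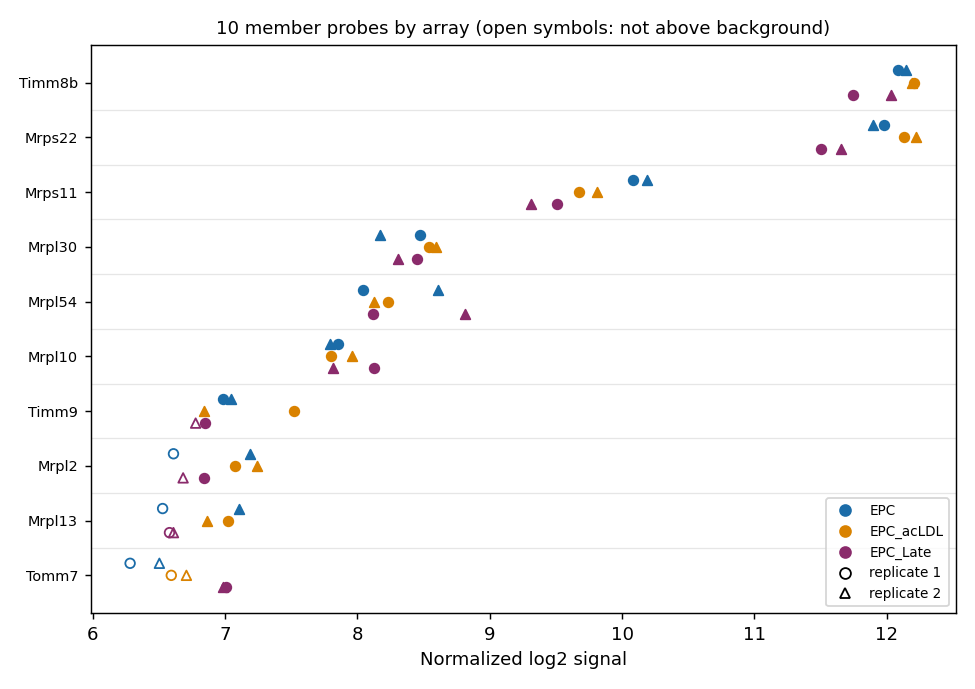
Normalized log2 signal (x axis) of the 10 measured genes on each array, with colour for the line, circles for replicate 1 and triangles for replicate 2. Open symbols are arrays where the probe was not above background, and the EPC_Late arrays of Mrps11 and Mrps22 lie below those of the other lines.

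The large subunit genes were dimmer and none passed a test. Mrpl30 had a log2 signal of 8.47 and 8.17 in EPC, 8.54 and 8.60 in EPC_acLDL, and 8.45 and 8.31 in EPC_Late. Mrpl54 ranged from 8.05 to 8.81, with its widest spread, 0.49 (SD, n = 2), in EPC_Late. Mrpl10 ranged from 7.79 to 8.13. Their differences between lines lay between -0.19 and 0.29, and the 95% intervals all included 0, that of Mrpl54 reaching from -0.81 to 0.51 for EPC_acLDL against EPC. Mrpl2 and Mrpl13, near the background, were above it on 4 and 3 arrays, and Timm9, another small Tim chaperone, on 5. Of these 3, the difference farthest from 0 was -0.40 for Mrpl2 in EPC_Late against EPC_acLDL (SE 0.20), and Mrpl2 and Mrpl13 entered only through EPC_acLDL, so their differences from that line are a description.

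Between EPC_acLDL and EPC none of the 10 members passed the threshold of an adjusted p of 0.05 in limma, where 3.3% of all tested probes did (1.93% higher and 1.37% lower in EPC_acLDL). At an unadjusted p under 0.05 there was 1 of 10, Mrps11, where 20.1% of all tested probes were. The arrays did not overlap for 5 of 10 members and 50.8% of all tested probes. The median difference was 0.14 over the 10 and 0.0075 over all tested probes. Without Mrpl2 and Mrpl13, which entered only through EPC_acLDL, it was 0.12 over 8 members, and the arrays did not overlap for 5. Tomm7, at 0.26, is still among those 8 and those 5, although it was above background in neither of these lines.

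Between EPC_Late and EPC 2 of 10 passed, Tomm7 higher and Mrps11 lower, where 23.9% of all tested probes did (10.9% higher and 13% lower). Leaving out Tomm7, which entered only through EPC_Late, 1 of 9 passed. At an unadjusted p under 0.05 there were 3 of 10, where 34.5% of all tested probes were. The arrays did not overlap for 5 of 10 members and 58% of all. The median difference was -0.17 against 0.0056 over all tested probes, with 4 members above 0 and 6 below. That median rests on 1 array, since it was -0.016 without EPC replicate 2. Without Tomm7 the arrays did not overlap for 4 of 9, and the median was -0.20.

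Between EPC_Late and EPC_acLDL 1 of 10 passed, Mrps22, where 20.9% did over all probes (9.34% higher and 11.5% lower). At an unadjusted p under 0.05 there were 3 of 10, where 31.9% of all tested probes were. The arrays did not overlap for 7 of 10 members and 58.6% of all. The median was -0.32 against 0.0028, with 3 members above 0 and 7 below. Mrpl2, Mrpl13 and Tomm7 each entered only through the line in which they are high, and the filter favours their direction here. Without them 1 of 7 passed, the arrays did not overlap for 4 of 7, and the median was -0.31 with 2 members above 0 and 5 below. These comparisons share arrays. With 10 members the counts are too small to be set apart from the shares over all tested probes.

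**Figure D3:**
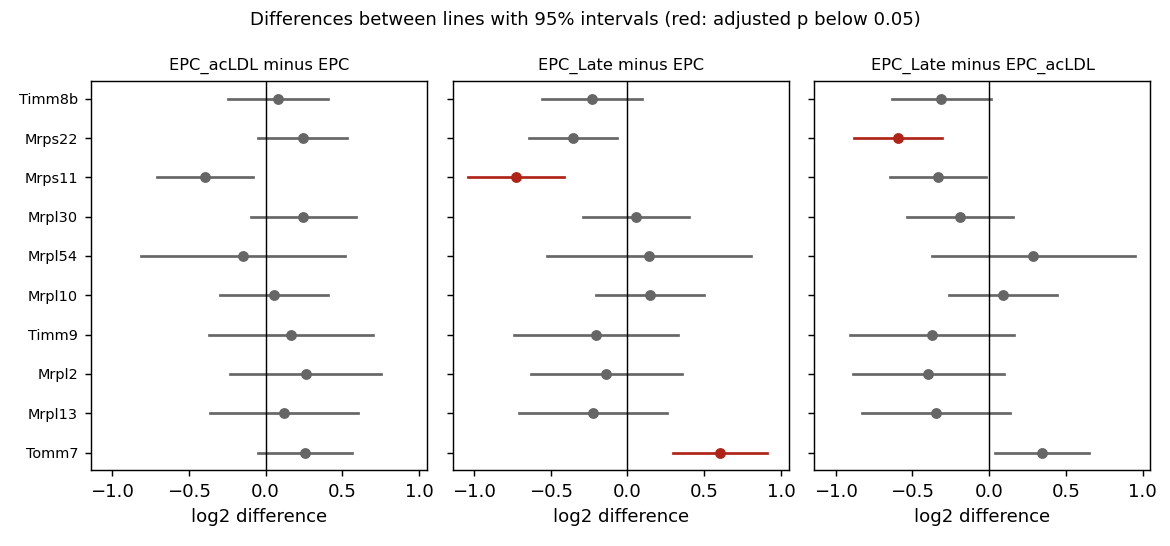
Log2 difference between lines (x axis) with 95% intervals for the 10 measured genes in each of the 3 comparisons, 2 arrays per line. Red marks an adjusted p below 0.05: Mrps11 and Tomm7 (which entered only through EPC_Late) in EPC_Late against EPC, and Mrps22 in EPC_Late against EPC_acLDL.

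Genes that work with the ribosome and the translocases were taken from lists of pathway partners. Of 34 probes for import partners, 6 were measured. Dnajc15, a J-domain protein of the inner membrane that contacts the import motor, had a log2 signal of 5.97 and 6.06 in EPC, where it was not above background, 8.02 and 7.87 in EPC_acLDL, and 10.03 and 10.24 in EPC_Late, the lines through which it entered the comparison. It was at least 2.15-fold higher in EPC_acLDL and at least 9.88-fold higher in EPC_Late than in EPC, bounds that were not tested. The fitted log2 differences from EPC were 1.93 (adjusted p = 0.00143) and 4.12 (adjusted p = 5.2e-05). Dnajc15 was 2.20 higher on the log2 scale in EPC_Late than in EPC_acLDL (SE 0.13, adjusted p = 0.000383). It was the import partner with the largest difference, and the arrays of its 3 lines did not overlap.

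Fxc1, the file's name for Timm10b, encodes a further small Tim protein, which the choice by prefix does not take in. Its log2 signal was 6.67 and 7.12 in EPC, 7.02 and 7.12 in EPC_acLDL, and 5.87 and 5.71 in EPC_Late, where it was not above background, and in EPC it was so on 1 of 2 arrays. It entered the comparison only through EPC_acLDL, so its difference from that line is a description: EPC_Late was at least 1.21-fold lower. Against EPC the fitted difference of EPC_Late was -1.11 (SE 0.17, adjusted p = 0.00532). With EPC_Late set at its lowest signal above background, it was at least 1.07-fold lower, a bound that was not tested. Hspd1, the matrix chaperonin that folds imported proteins, was 11.88 and 11.77 in EPC, 11.91 and 12.02 in EPC_acLDL, and 11.16 and 11.12 in EPC_Late. EPC_Late was below EPC by -0.69 (SE 0.12, adjusted p = 0.00724) and below EPC_acLDL by -0.83 (SE 0.12, adjusted p = 0.00451). Mtch2, an outer membrane insertase, fell by 0.70 from EPC_acLDL to EPC_Late (SE 0.11, adjusted p = 0.00661), and its adjusted p was 0.0511 without EPC_acLDL replicate 1. Samm50 and Hspe1 did not pass a test. Further probes of Fxc1, Hspd1 and Mtch2 were above background on no array, so the values here are those of a single probe.

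Among 20 probes for mitoribosome assembly factors 4 were measured. Mett11d1, the file's name for Mettl17, an assembly factor of the small subunit, was 12.39 and 12.34 in EPC, 12.31 and 12.36 in EPC_acLDL, and 11.53 and 11.60 in EPC_Late. EPC_Late lay below both other lines, by -0.80 against EPC (SE 0.11, adjusted p = 0.00307) and by -0.77 against EPC_acLDL (SE 0.11, adjusted p = 0.00469). Eral1, Fastkd2 and Nsun4, which bind or modify mitochondrial ribosomal RNA, did not pass.

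Of 20 probes for mitochondrial tRNA synthetases 2 were measured, and the further probes of Rars2 were above background on no array. Rars2, which charges arginine tRNA, was -0.68 in EPC_acLDL against EPC (SE 0.11, adjusted p = 0.0373) and 0.51 in EPC_Late against EPC_acLDL (SE 0.11, adjusted p = 0.0238). The first adjusted p lay between 0.0747 and 0.216 with any 1 array left out, and the second between 0.0734 and 0.134 with any 1 EPC_acLDL or EPC_Late array left out. None of the 3 measured probes on the list of translation factors (of 26) passed. They were for Gfm1, Mtrf1 and Dap3, of which Dap3 encodes a small subunit protein that the choice by prefix does not take in. None of the 12 probes for mitochondrial DNA maintenance and transcription was measured. Of 12 probes for regulators of mitochondrial biogenesis 3 were measured, 1 for Esrra and 2 for Gabpb1. Those of Nrf1, Gabpa and Yy1, the factors behind the motifs above, were above background on no array. Esrra, a nuclear receptor that acts on genes of energy metabolism, passed no test, with differences from -0.14 to -0.045. Gabpb1, the partner subunit of the ETS factor GABP, had probes that passed in different comparisons and went opposite ways in EPC_acLDL against EPC, at -0.38 (SE 0.15, adjusted p = 0.231) and 0.39 (SE 0.26, adjusted p = 0.459). The first fell by 0.68 from EPC to EPC_Late (SE 0.15, adjusted p = 0.0213) and the second was -0.56 there (adjusted p = 0.188). The second fell by 0.96 from EPC_acLDL to EPC_Late (SE 0.26, adjusted p = 0.0469) and the first was -0.30 there (adjusted p = 0.25). The adjusted p of the first was 0.0978 without EPC replicate 2 and 0.111 without EPC_Late replicate 1, and the second had an adjusted p from 0.155 to 0.211 without any 1 array of its 2 lines.

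**Figure D4:**
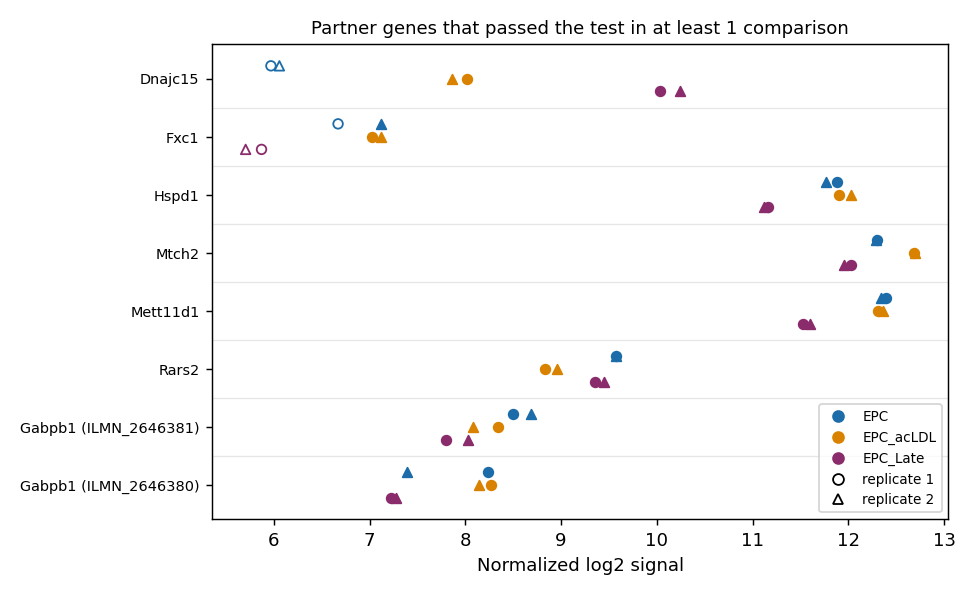
Normalized log2 signal (x axis) on each array for the partner genes that passed a test, drawn as for the 10 members, with both Gabpb1 probes shown. Dnajc15 rises from 5.97 to 10.24 across the lines, and Hspd1 and Mett11d1 are lowest in EPC_Late.

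The respiratory chain and ATP synthase list holds nuclear genes only, and none of the subunits that the mitochondrial ribosome makes. It gave no call among 12 measured probes in any comparison in limma. At an unadjusted p under 0.05 there were 0, 1 and 1, where 20.1%, 34.5% and 31.9% of all tested probes were. Among 27 measured cytosolic ribosomal probes the calls were 0 between EPC_acLDL and EPC, 2 lower in EPC_Late against EPC, and 2 higher and 2 lower in EPC_Late against EPC_acLDL, where 3.3%, 23.9% and 20.9% of all tested probes were called. Of the haematopoietic markers 2 of 19 probes were measured, Csf1r and Coro1a. Further probes of both genes were above background on no array. Coro1a, above background on 1 of 2 EPC_Late arrays and on both EPC arrays, was -1.29 in EPC_Late against EPC on the fitted scale (SE 0.26, adjusted p = 0.0147), with an adjusted p of 0.073 without EPC replicate 1 and 0.0707 without EPC_Late replicate 1. Csf1r was 0.12 in the same comparison (SE 0.15, adjusted p = 0.647). The summed signal of both was 442 to 468 in EPC, 352 to 468 in EPC_acLDL and 315 to 358 in EPC_Late, and Ptprc was above background on no array. Fibroblast and mural markers had 2 of 15 probes measured, with a summed signal from 294 to 327 in EPC, 341 to 343 in EPC_acLDL and 327 to 339 in EPC_Late, and Col1a2 was 0.43 higher in EPC_Late than in EPC (SE 0.12, adjusted p = 0.047; 0.0635 to 0.165 with any 1 array left out). Acta2, the other probe measured, was -0.18 there (SE 0.14, adjusted p = 0.45). Cdh1 was the only 1 of 7 epithelial probes measured. The part of these markers in the results was not tested, and fewer cells of a type and less RNA per cell cannot be told apart.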

How the data were processed

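MouseRef-8 v2.0 arrays were used, 2 for each of 3 lines. The authors summarized bead intensities in Beadstudio v3.1 with its default local background correction and no normalization, and deposited 1 linear intensity and 1 detection p-value per probe and array. A genome build is not given in the sources used here, and the files give no probe sequence or position. In R 4.3.3 with limma 3.58.1, neqc removed background estimated from the detection p-values, added an offset of 16, quantile normalized and took log2 values, in which all differences are given. Probes passing a detection p-value of 0.05 on each of the 2 arrays of some line were fitted together with lmFit and eBayes over 6 arrays, without covariates, and p-values were adjusted over all 2333 (Benjamini-Hochberg). An "at least" fold sets the brighter line against, on each array of the dimmer, its own signal or the dimmest signal still above background, whichever is higher. The steps were tested on simulated data with noise estimated from the replicate arrays, after a first version with guessed noise had recovered too few changes. More probes passed the filter in the simulation than in the data, so its background is not that of the arrays. The share of false calls in it was above the nominal rate, so calls near the threshold carry less certainty than the adjusted p states.

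The members and the gene lists were chosen with earlier results of these data known. Named were the members that passed a test, the 3 highest and 3 lowest differences per comparison, the brightest probe of each role, and of the partner lists the probes that passed, up to 3 per list and comparison, and Dnajc15. This takes in 9 of the 10 measured members. Mrpl13, Samm50, Hspe1, Eral1, Fastkd2, Nsun4, Gfm1, Mtrf1, Dap3, Esrra and the marker genes were named after their values were seen, to complete their lists. In a fit with an array left out, the line's lone array is assumed to vary like those of the other lines. Promoters and the 3 motifs were searched in RefSeq windows of GRCm38.p6, and no test was run on their shares. Alternatives changed the background correction, normalization, filter, variance model, arrays in the fit, replicate block and test. The same settings were run on the partner and marker genes as a choice made after seeing the data.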

Additional observations from a re-analysis of the deposited data

How the results depend on the processing

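The number of arrays and the signal over background limit these values: 121 of 131 member probes were too dim to compare. With the replicate number as a block the members called were 0, 2 and 1 in EPC_acLDL against EPC, EPC_Late against EPC, and EPC_Late against EPC_acLDL, and the calls over all 2333 probes 43, 547 and 458. Same-numbered arrays correlated in their deviations at 0.079, 0.021 and 0.032, so the numbers were not taken as pairs.

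For EPC_acLDL against EPC, the count of members called was 1 without background correction and 1 by the methods' t-test unadjusted. For EPC_Late against EPC, it was 1 with only probes above background on all 6 arrays, which leaves out Tomm7 (486 of all 1686 probes then passed), 0 by the methods' t-test after Benjamini-Hochberg, and 0 to 2 with 1 array left out. For EPC_Late against EPC_acLDL, it was 3 without background correction, 2 with a shift to the 75th percentile, 3 without normalization, 2 with limma-trend and robust variances, 2 by the methods' t-test unadjusted, 0 by it after adjustment, and 0 to 1 with 1 array left out. Over all 2333 probes the calls in this comparison were 610 without background correction, 502 with the shift, 527 without normalization, 631 with limma-trend and 568 by the unadjusted t-test, against 487. With 1 array left out, calls over all probes ran from 9 to 35, from 366 to 462 and from 203 to 461 in the 3 comparisons, in fits where the line's lone array takes its spread from the other lines. Without EPC_acLDL replicate 2 the 1 member called was Timm9, at -0.71 (adjusted p = 0.048), and not Mrps22. By the methods' t-test the calls over all probes were 355 unadjusted for EPC_acLDL against EPC, and after adjustment 15 and 11 for the other comparisons, where limma gave 77, 557 and 487. Over all probes EPC_acLDL against EPC gave 273 calls without background correction, 138 with the shift, 285 without normalization, 50 without a filter and 173 with the stricter filter.

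The median difference of the members for EPC_acLDL against EPC was 0.065 without background correction, 0.31 with the shift, 0.39 without normalization, -0.0049 without a filter, 0.068 with the stricter filter and 0.068 with probes above background on all 6 arrays. For EPC_Late against EPC it was 0.0049 without a filter. With the stricter filter or with probes above background on all 6 arrays, that median lay between the -0.23 of Timm8b and the 0.055 of Mrpl30. For EPC_Late against EPC_acLDL the median was -0.11 without background correction. It was -0.21 with an offset of 50 and background estimated without the detection p-values, which changes both at once. It was -0.47 with the shift, -0.48 without normalization and -0.013 without a filter. Both the stricter filter and probes above background on all 6 arrays gave -0.25. Without a filter the median is taken over all 131 probes. The shift moved the median of all tested probes by 0.16 and -0.15 in the comparisons with EPC_acLDL, and no normalization by 0.25 and -0.16.

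With 1 array left out, differences ran over these ranges. For EPC_acLDL against EPC, the member median ran from 0.069 to 0.19, Mrpl13 ran from -0.17 to 0.41, Mrpl2 ran from -0.026 to 0.55, Mrpl54 ran from -0.43 to 0.13, Timm9 ran from -0.18 to 0.51 and Mrpl10 from -0.026 to 0.14. For EPC_Late against EPC, the member median ran from -0.25 to -0.016, Mrpl54 ran from -0.21 to 0.49, Mrpl13 ran from -0.51 to 0.067, Mrpl2 ran from -0.42 to 0.15, Mrpl30 ran from -0.10 to 0.21 and Mrpl10 from -0.0073 to 0.30. For EPC_Late against EPC_acLDL, the member median ran from -0.32 to -0.24, Mrpl10 ran from -0.064 to 0.25 and Mrpl54 from -0.059 to 0.64. Mrpl54 in EPC_acLDL against EPC turned to 0.021 with the shift and 0.11 without normalization, and Mrpl10 in EPC_Late against EPC_acLDL to -0.044 and -0.055.
Of 849 values of single genes under an alternative, 742 kept their direction and side of the threshold, 74 lost and 15 gained a call, and 18 changed sign. No called member changed sign in any alternative.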
